A study of Mus musculus with 6 samples.

Results

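The Fc gamma receptors, their signaling adaptor Fcer1g and the kinase Syk were followed in the mouse macrophage line RAW264.7. The 6 genes Fcgr1, Fcgr2b, Fcgr3, Fcgr4, Fcer1g and Syk were chosen by name from 24062 genes in the deposited tables. Earlier results of these data were known when they were chosen. All 6 had enough counts to be tested. RNA was sequenced in 6 conditions with 1 library each, made from RNA pooled from several wells. M0 cells were left unpolarized. Polarization lasted 24 h, with LPS at 100 ng/mL plus IFN-γ at 20 ng/mL for the M1 state and with IL-4 at 20 ng/mL for the M2 state. RM0, RM1 and RM2 macrophages were these states exposed to 10 Gy of gamma radiation from a cesium source and cultured for 24 h more. The labels name bone marrow as the tissue beside this cell line, and they do not say how long the libraries without irradiation were cultured after polarization. All comparisons ask how the receptors for IgG and their immediate signaling partners differed with polarization and with irradiation.

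Fc gamma receptors bind the constant region of IgG and let a macrophage take up antibody-coated particles. Fcgr1 encodes the high-affinity receptor, Fcgr3 a low-affinity receptor and Fcgr4 a receptor of intermediate affinity, and all of these signal through the γ chain encoded by Fcer1g, which carries an ITAM (an activating tyrosine motif) and is needed for the receptors to reach the cell surface. Src family kinases phosphorylate the ITAM, which recruits the kinase Syk. Fcgr2b encodes the inhibitory receptor of the family, whose ITIM (an inhibitory tyrosine motif) recruits a lipid phosphatase that dampens the signal.

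The genes lay in GRCm38 at chr3:96282909-96293969 on the minus strand for Fcgr1 (NM_010186), chr1:170960559-170976071 on the minus strand for Fcgr2b (NM_010187), chr1:171018926-171029761 on the plus strand for Fcgr4 (NM_144559), chr1:171051169-171059403 on the minus strand for Fcgr3 (NM_010188), chr1:171229572-171234349 on the minus strand for Fcer1g (NM_010185) and chr13:52583437-52648792 on the plus strand for Syk (NM_001198977). Fcgr2b, Fcgr4, Fcgr3 and Fcer1g therefore sat near each other on chromosome 1, and Fcgr1 and Syk on chromosomes of their own. An antisense transcript, Gm38204, overlaps Fcgr2b at chr1:170973373-170977746. Whether counting used strand is not given in the sources used here, so reads of Fcgr2b and of this transcript cannot be told apart. Of the 1363 windows of 100 bases in the Fcgr2b transcript, 44 were identical in Fcgr3 (3.23%). Reads that lie wholly in that stretch match both genes, and how the counting treated them was not checked. Fcgr1, Fcgr4, Fcer1g and Syk shared no such window with another gene.

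The 250 bases before the RefSeq start site (GRCm38.p6, shown 5′ to 3′ on the strand of the gene) are given for the activating receptors, which differed most between libraries, and for the inhibitory receptor encoded beside Fcgr3 and Fcgr4. Capitals mark 3 motifs searched on both strands: TTCNNNGAA, the form of a gamma interferon activation site bound by STAT dimers, GAGGAA, the core bound by the macrophage factor PU.1, and GAAA with a further GAAA after 2 bases, a form bound by interferon regulatory factors. The windows are chr3:96293970-96294219 (minus strand) for Fcgr1, chr1:171059404-171059653 (minus strand) for Fcgr3, chr1:171018676-171018925 (plus strand) for Fcgr4 and chr1:170976072-170976321 (minus strand) for Fcgr2b.
Fcgr1: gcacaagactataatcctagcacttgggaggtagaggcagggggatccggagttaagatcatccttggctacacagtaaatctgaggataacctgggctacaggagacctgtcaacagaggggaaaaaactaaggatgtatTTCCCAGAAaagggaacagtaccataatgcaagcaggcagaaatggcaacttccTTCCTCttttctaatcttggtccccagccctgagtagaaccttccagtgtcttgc
Fcgr3: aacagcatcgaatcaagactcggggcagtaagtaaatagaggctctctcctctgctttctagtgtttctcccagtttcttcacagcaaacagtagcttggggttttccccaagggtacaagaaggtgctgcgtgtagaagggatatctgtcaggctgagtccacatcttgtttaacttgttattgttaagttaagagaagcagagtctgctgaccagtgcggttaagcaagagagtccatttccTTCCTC
Fcgr4: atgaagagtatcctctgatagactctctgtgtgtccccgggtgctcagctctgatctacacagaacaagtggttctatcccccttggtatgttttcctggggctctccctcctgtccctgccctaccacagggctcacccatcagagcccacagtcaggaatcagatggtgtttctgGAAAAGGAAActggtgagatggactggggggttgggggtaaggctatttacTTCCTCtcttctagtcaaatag
Fcgr2b: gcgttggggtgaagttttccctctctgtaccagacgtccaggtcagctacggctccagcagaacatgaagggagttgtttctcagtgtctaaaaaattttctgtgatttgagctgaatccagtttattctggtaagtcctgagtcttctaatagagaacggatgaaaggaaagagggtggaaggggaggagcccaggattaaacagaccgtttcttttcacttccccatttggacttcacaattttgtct
TTCNNNGAA occurred in the window of Fcgr1 and in no other window of the 6 genes, as TTCCCAGAA starting 109 bases before the start site. It was present in 7.02% of the 32851 mouse promoter windows of this length. GAGGAA, read here on the opposite strand as TTCCTC, started 55 bases before the start site of Fcgr1, 6 bases before that of Fcgr3 and 22 bases before that of Fcgr4, and a match on the gene's own strand lay 9 bases before an alternative start site of Syk. It was present in 23.3% of all windows. The third motif occurred only before Fcgr4 among the 6 genes, as GAAAAGGAAA starting 73 bases before the start site, against 2.98% of all windows. The windows of Fcgr2b and Fcer1g held none of these letters. These are matches of letters and not measured binding.

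Total counts per library ranged from 17894937 to 18870516. Levels are given as scaled CPM, which are counts normalized to the library total and its TMM scaling factor. Of 8 macrophage markers, 7 had at least 10 counts in every library, and Mertk had 3 to 8 counts. Of 16 markers of other cell types (B, T, NK, mast and endothelial cells, neutrophils, fibroblasts and epithelium), 15 were listed, 10 were at 0 in all 6 libraries, and their summed counts were 24 to 58 per library. In bulk RNA, fewer cells with a transcript and less of it per cell cannot be told apart.

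In M0 macrophages all 6 genes were expressed, with Syk and Fcer1g among the abundant transcripts. The scaled CPM of Syk in M0 exceeded that of 95.0% of the tested genes and that of Fcer1g exceeded 92.6%, while Fcgr4 stood above 41.4%. Levels were compared between genes as scaled CPM per kilobase of the transcript that the files list. In M0 these levels were 266.8 for Fcer1g, 51.0 for Fcgr2b, 46.9 for Syk, 27.7 for Fcgr3, 19.1 for Fcgr1 and 15.5 for Fcgr4. Fcer1g was first in every library, and the inhibitory receptor exceeded each activating receptor in M0, M2, RM0 and RM2. In M1 and RM1 Fcgr1 moved to the second place, at 135.8 and 107.2 scaled CPM per kilobase, above Fcgr2b at 86.3 and 89.1. The place of Fcgr2b rests on the length used: over its longest transcript it was at 21.1 in M0, 18.6 in M2, 20.4 in RM0 and 19.3 in RM2, below Fcgr3 in the first 3 of these libraries. The places of Fcgr1 and Syk depend on the length too. Their listed transcripts had 2589 and 5363 bases, against median lengths of 1594.5 and 2993 bases. Most neighbours in the orders by listed transcript had counting intervals that did not overlap, but these intervals do not cover the choice of length. Overlapping intervals were found for Fcgr2b and Syk and for Fcgr3 and Fcgr1 in M2, for Fcgr1 and Fcgr4 in RM0, and for Fcgr3, Fcgr4 and Fcgr1 as neighbours in RM2.

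With LPS and IFN-γ, the activating receptors, the inhibitory receptor and the adaptor rose in the M1 state, and Fcgr1 rose most. For the M1 effect over irradiated and non-irradiated cells, M1 and RM1 were set against M0 and RM0 in edgeR's quasi-likelihood test. At a threshold of 0.05 on the adjusted p it called 5 of the 6 genes higher and 0 lower, while 23.3% of all 11574 genes tested were called higher. The median log2 fold change was 0.83 over the 6 genes and -0.02 over all genes tested. With library totals as the only scaling, 4 of the 6 genes were called higher, and the calls over all genes moved from 2692 higher and 2817 lower to 1091 higher and 4750 lower.

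**Figure D1:**
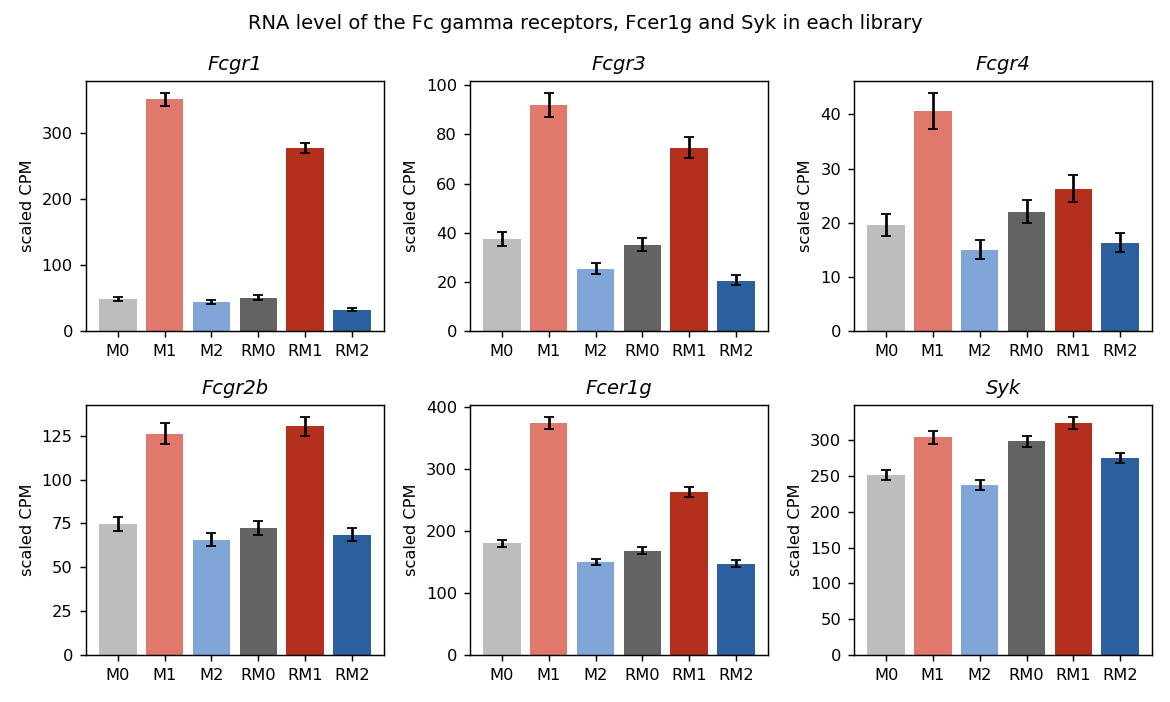
Scaled CPM (y axis, linear from 0, a scale for each gene) of the 6 genes in each of the 6 libraries. Bars are the value of 1 library and error bars are exact 95% Poisson intervals of its count, which cover counting error only. Fcgr1 stood at 352 in M1 and 277.6 in RM1 and between 32.6 and 51.0 in the other libraries, while Syk ranged only from 237.2 to 324.

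Fcgr1, the high-affinity receptor, had 978, 5200 and 891 counts in M0, M1 and M2, and 1000, 4628 and 646 counts in RM0, RM1 and RM2. Its scaled CPM were 49.3, 352, 43.9, 51.0, 277.6 and 32.6 in the same order. M1 and RM1 stood far above the other libraries, and M1 above RM1. M1 was 7.12-fold above M0, a log2 fold change of 2.83 (95% counting interval 2.74 to 2.93), and RM1 had one of 2.44 against RM0 (2.34 to 2.54), which is 5.43-fold. In edgeR's quasi-likelihood test the M1 effect was 2.63 on the log2 scale (SE 0.146, adjusted p = 6.98e-07), higher in both pairs. With library totals alone it was 2.29 in the same test (adjusted p = 4.91e-05).

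Fcgr3, the low-affinity activating receptor, had 741, 1358 and 517 counts in M0, M1 and M2, and 689, 1242 and 409 counts in RM0, RM1 and RM2. Its scaled CPM were 37.4, 91.8, 25.5, 35.2, 74.5 and 20.6. The order was that of Fcgr1 in the M1 state, with smaller distances, and the M2 state lay below M0 in both pairs. The log2 fold change was 1.30 (1.17 to 1.43) in M1 against M0 and 1.08 (0.947 to 1.22) in RM1 against RM0. The M1 effect in edgeR's quasi-likelihood test was 1.19 (SE 0.125, adjusted p = 4.17e-05), and with library totals alone it was 0.84 (adjusted p = 0.00152).

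Fcgr4, the receptor of intermediate affinity, was the least abundant by count, with 387, 600 and 304 counts in M0, M1 and M2, and 432, 437 and 323 counts in RM0, RM1 and RM2. Its scaled CPM were 19.5, 40.6, 15.0, 22.0, 26.2 and 16.3. M1 stood apart from the other 5 libraries, and RM1 lay close to RM0. The log2 fold change was 1.05 (0.870 to 1.24) in M1 against M0 and 0.25 (0.0543 to 0.445) in RM1 against RM0. The M1 effect in edgeR's quasi-likelihood test was 0.67 (SE 0.188, adjusted p = 0.0136), and with library totals alone it was 0.32 (adjusted p = 0.175) and no longer called. The value in RM1 against RM0 with library totals alone was 0.00045, so the higher level of Fcgr4 in that pair rested on the scaling.

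Fcgr2b, the inhibitory receptor, had 1480, 1866 and 1335 counts in M0, M1 and M2, and 1416, 2173 and 1357 counts in RM0, RM1 and RM2. Its scaled CPM were 74.6, 126.2, 65.8, 72.3, 130.3 and 68.4. M1 and RM1 were close to each other and above the other 4 libraries, which were also close to each other. The log2 fold change was 0.76 (0.659 to 0.858) in M1 against M0 and 0.85 (0.754 to 0.948) in RM1 against RM0, under 2-fold in both. The M1 effect in edgeR's quasi-likelihood test was 0.80 (SE 0.118, adjusted p = 0.000327), and with library totals alone it was 0.46 (adjusted p = 0.0155). The pair values with library totals alone were 0.32 in M1 against M0 and 0.60 in RM1 against RM0, so their size rested on the scaling. Of the 4 receptors Fcgr2b had the smallest difference between M1 and M0, and Fcgr4 had the smallest between RM1 and RM0.

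Fcer1g, the ITAM adaptor, had 3566, 5528 and 3033 counts in M0, M1 and M2, and 3282, 4379 and 2922 counts in RM0, RM1 and RM2. Its scaled CPM were 179.8, 374, 149.5, 167.5, 262.6 and 147.3. M1 was highest, RM1 stood between M1 and the rest, and the other 4 libraries lay together. The log2 fold change was 1.06 (0.995 to 1.12) in M1 against M0 and 0.65 (0.583 to 0.715) in RM1 against RM0. The M1 effect in edgeR's quasi-likelihood test was 0.86 (SE 0.142, adjusted p = 0.000713), and with library totals alone it was 0.51 (adjusted p = 0.00732). The pair values with library totals alone were 0.61 in M1 against M0 and 0.40 in RM1 against RM0, so their size rested on the scaling.

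Syk, the kinase that docks on the phosphorylated ITAM, had 4992, 4493 and 4812 counts in M0, M1 and M2, and 5847, 5404 and 5457 counts in RM0, RM1 and RM2. Its scaled CPM were 251.7, 304, 237.2, 298.4, 324 and 275.1, a span of 0.45 on the log2 scale, against 3.43 for Fcgr1. No state stood apart for Syk, and RM0 lay close to M1. The M1 effect in edgeR's quasi-likelihood test was 0.20 (SE 0.122, adjusted p = 0.208) and did not pass, and it was -0.15 (adjusted p = 0.243) with library totals alone, so its sign rested on the scaling.

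Past 2-fold, 4 of the 6 genes were higher in M1 than in M0, against 9.37% of the genes with at least 10 counts in 1 of these libraries. They were Fcgr1, Fcgr3, Fcgr4 and Fcer1g. In RM1 against RM0 the count was 2, Fcgr1 and Fcgr3, against 6.16%. Such calls compare 2 libraries and carry no p-value. The counting intervals of Fcgr4 and Fcer1g in M1 against M0 reached below 2-fold. With library totals alone Fcgr1 was the only 1 of the 6 genes past 2-fold in either pair, and the share of all genes with that scaling is not given here. The macrophage markers also moved with the M1 state: in edgeR's quasi-likelihood test Emr1, the macrophage adhesion receptor, was higher, with a log2 fold change of 1.82 (adjusted p = 8.36e-06), Csf1r was lower at -1.07 (adjusted p = 0.00011) and Lyz2 was lower at -0.82 (adjusted p = 0.0074), and the other 4 tested markers of 7 did not pass. The summed counts of the 8 macrophage markers were 318532 in M1 and 419536 in RM1 and 523575 to 726247 in the other libraries, with Lyz2 the main part. Pecam1, at 11 to 47 counts the only tested marker of another cell type, was called higher at 1.13 (adjusted p = 0.0246). The part of these markers in the receptor values was not tested.

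**Figure D2:**
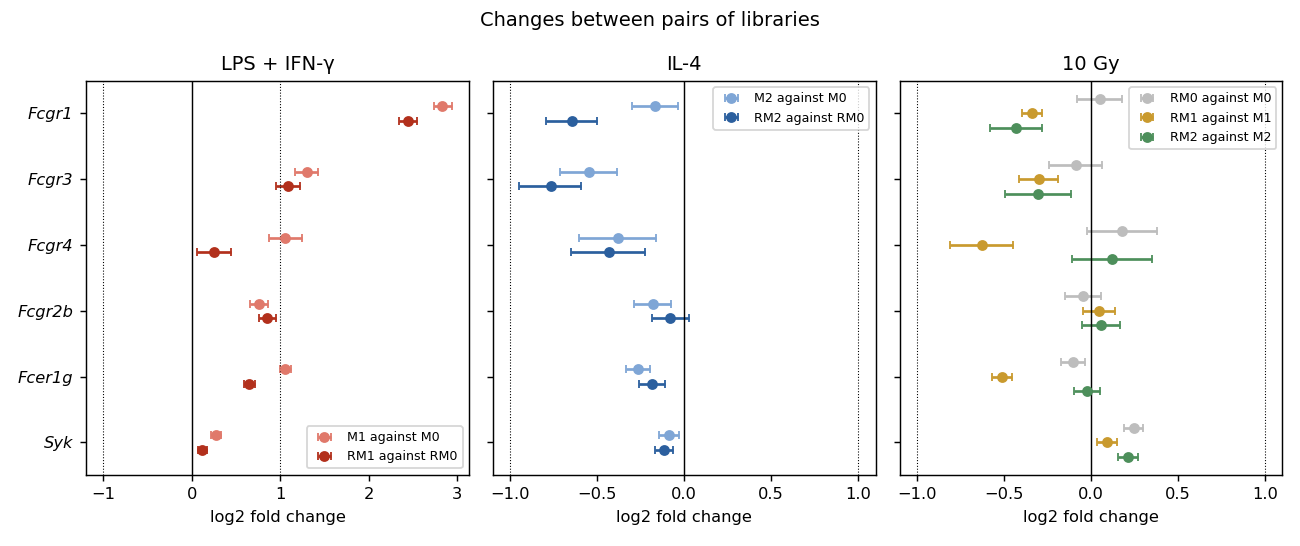
Log2 fold change (x axis) of the 6 genes between pairs of libraries, for polarization with LPS and IFN-γ (left), IL-4 (middle) and irradiation (right). Points are the value of a pair, horizontal bars are 95% counting intervals and dotted lines mark 2-fold. Fcgr1 lay at 2.83 and 2.44 in the M1 pairs, and all values in the IL-4 and irradiation pairs lay within 2-fold.

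With IL-4, the 6 genes lay below the level without polarization, and none was called. The log2 fold changes in M2 against M0 were -0.55 (-0.717 to -0.388) for Fcgr3, -0.38 (-0.602 to -0.160) for Fcgr4, -0.27 for Fcer1g, -0.18 for Fcgr2b, -0.17 for Fcgr1 and -0.09 for Syk. No gene passed 2-fold in this pair, against 1.44% of all genes. In RM2 against RM0 they were -0.77 (-0.950 to -0.592) for Fcgr3, -0.65 (-0.793 to -0.504) for Fcgr1, -0.43 (-0.650 to -0.226) for Fcgr4, -0.19 for Fcer1g, -0.12 for Syk and -0.08 for Fcgr2b. Here too no gene passed 2-fold, against 2.61% of all genes. The same sign was thus found for every gene in both pairs, and it was kept with library totals alone. The M1 and M2 comparisons share the M0 and RM0 libraries.

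Over irradiated and non-irradiated cells, edgeR's quasi-likelihood test of the M2 effect called 0 of the 6 genes, against 0.19% of all genes tested, and 2 had an unadjusted p under 0.05. These were Fcgr3, with a log2 fold change of -0.66 (SE 0.128, adjusted p = 0.0884), and Fcgr1, with -0.41 (SE 0.142, adjusted p = 0.458). DESeq2 called 1 of the 6 genes, Fcgr3, at -0.67 (adjusted p = 0.0422), beside 41 calls over all genes. When M1 and RM1 were left out of the edgeR fit, 3 of the 6 genes were called lower. These were Fcgr3 at -0.65 (adjusted p = 1.88e-06), Fcgr1 at -0.39 (adjusted p = 0.0057) and Fcgr4 at -0.40 (adjusted p = 0.0185). The calls over all genes, in either direction, went from 22 to 1322, and the share called lower is not given here. The effect sizes of Fcgr3, Fcgr1 and Fcgr4 moved by less than 0.05 on the log2 scale between these fits.

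After 10 Gy of gamma radiation, receptor levels in RM0 lay close to those in M0. Fcgr1 and Fcgr3 lay below their non-irradiated level in RM1 and RM2, while no gene passed the test over the 3 states. The culture time of the libraries without irradiation is not given, so irradiation and longer culture cannot be told apart in these comparisons. In RM0 against M0 the log2 fold changes of Fcgr1, Fcgr3, Fcgr4 and Fcgr2b were 0.05, -0.09, 0.18 and -0.05, with counting intervals that included 0. Fcer1g was at -0.10 (-0.171 to -0.0334) and Syk at 0.25 (0.191 to 0.300). None of the 6 genes passed 2-fold, against 1.54% of all genes in this pair.

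In RM1 against M1, Fcgr4 was at -0.63 (-0.812 to -0.450), Fcer1g at -0.51 (-0.567 to -0.452), Fcgr1 at -0.34 (-0.399 to -0.284) and Fcgr3 at -0.30 (-0.414 to -0.190) on the log2 scale. Fcgr2b was at 0.05 (-0.0435 to 0.136) and Syk at 0.09 (0.0357 to 0.150). The activating receptors and the adaptor were thus lower in RM1 than in M1 beyond counting error, and the inhibitory receptor was not. With library totals alone the first 4 genes were at -0.49, -0.37, -0.20 and -0.16, and Fcgr2b was at 0.19. In RM2 against M2, Fcgr1 was at -0.43 (-0.580 to -0.284) and Fcgr3 at -0.30 (-0.497 to -0.116), while Fcgr4, Fcgr2b and Fcer1g were at 0.12, 0.06 and -0.02 with intervals that included 0. Syk was at 0.21 (0.157 to 0.270). No gene passed 2-fold in these pairs, against 5.34% of all genes in RM1 against M1 and 1.97% in RM2 against M2.

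The effect of irradiation over the 3 states came from the edgeR quasi-likelihood fit that held polarization as a term. It called 0 of the 6 genes, against 0.475% of all genes tested (55 genes), 1 gene had an unadjusted p under 0.05, and DESeq2 called 0. That gene was Fcgr3, with a log2 fold change of -0.23 (SE 0.103, adjusted p = 0.327), lower in 3 of 3 pairs. Fcgr1 was at -0.24 (SE 0.114, adjusted p = 0.353) and lower in 2 of 3 pairs. Fcer1g was at -0.21 (SE 0.116, adjusted p = 0.413) and lower in 3 of 3. Syk was at 0.18 (SE 0.0998, adjusted p = 0.412) and higher in 3 of 3. Fcgr4 and Fcgr2b were at -0.12 and 0.02 (adjusted p = 0.741 and 0.939).

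The step from M0 to M1 was smaller with irradiation than without it for 5 genes. The difference of the log2 fold changes, RM1 against RM0 minus M1 against M0, was -0.80 for Fcgr4 (counting SE 0.136), -0.41 for Fcer1g (0.0455), -0.39 for Fcgr1 (0.0711), -0.21 for Fcgr3 (0.0951) and -0.15 for Syk (0.0403), and it was 0.09 for Fcgr2b (0.0704). With library totals alone the difference was -0.61 for Fcgr4, -0.21 for Fcer1g, -0.20 for Fcgr1, -0.02 for Fcgr3 and 0.28 for Fcgr2b, and for Syk it turned to 0.04. With 1 library per condition these differences have no replicate check and were not tested. Irradiation and longer culture cannot be told apart in them either.

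The make-up of the receptor RNA moved toward Fcgr1 in the M1 state, and the shares of Fcgr2b, Fcgr3 and Fcgr4 fell. Of the summed scaled CPM per kilobase of the 4 receptors, Fcgr1 made up 16.8%, 42.1% and 18.3% in M0, M1 and M2 and 17.5%, 39.3% and 14.4% in RM0, RM1 and RM2. Fcgr2b made up 45%, 26.8%, 48.5%, 43.8%, 32.7% and 53.4% in the same order. Fcgr3 took 17.5% to 24.5% and Fcgr4 7.66% to 15.6% over all libraries. From M0 to M1 Fcgr3 went from 24.5% to 21.1% and Fcgr4 from 13.7% to 10%. From RM0 to RM1 they went from 23.1% to 20.3% and from 15.6% to 7.66%. Among the activating receptors only Fcgr1 thus gained in share. These shares depend on the transcript lengths, as the order of levels does. The sum itself was 113.4 in M0, 322.7 in M1 and 272.5 in RM1, and 87.6 in RM2.

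**Figure D3:**
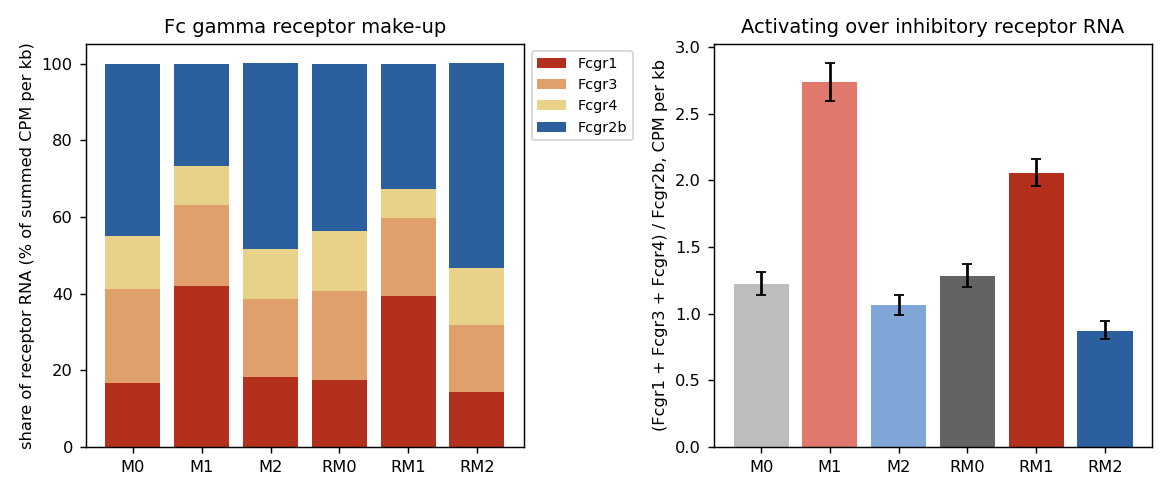
Left, share of each Fc gamma receptor in the summed scaled CPM per kilobase of the 4 receptors (percent) in each library. Right, ratio of the summed activating receptors to Fcgr2b, with 95% intervals for counting error. The ratio was 2.74 in M1 and 2.06 in RM1 and at most 1.28 in the other libraries.

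The ratio of the summed activating receptors to Fcgr2b, which does not depend on how libraries are scaled, was 1.22 in M0 (95% counting interval 1.14 to 1.31), 2.74 in M1 (2.60 to 2.88) and 1.06 in M2 (0.987 to 1.14). In the irradiated cells RM0 had a ratio of 1.28 (1.20 to 1.37), RM1 of 2.06 (1.96 to 2.16) and RM2 of 0.873 (0.808 to 0.943). RM1 thus lay below M1 and RM2 below M2 beyond counting error, while RM0 and M0 overlapped. The ratio depends on the transcript length used for each gene and is therefore given for its order over libraries. This order was the same with the median length. Among the receptors the longest transcript differed from the listed one only for Fcgr2b, so that length could not change the order. The adaptor exceeded the summed activating receptors in every library. They made up 0.234, 0.426 and 0.216 of the level of Fcer1g in M0, M1 and M2 and 0.255, 0.471 and 0.187 of it in RM0, RM1 and RM2.

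The genes with the most similar pattern were sought among 10189 genes that averaged 50 counts or more, for members of the set that spanned more than 2-fold over the 6 libraries. For Fcgr1 the closest were Ifi27l2a and Isg20, both interferon-induced genes, with root mean square differences of 0.122 and 0.156 on the log2 scale. Ifi27l2a had scaled CPM of 12.3, 89.3, 9.27, 12.0, 64.8 and 6.45 in M0, M1, M2, RM0, RM1 and RM2, a rise and a shortfall in RM1 like those of Fcgr1. For Fcgr3 they were H2-Q7 and H2-Q9, nonclassical MHC genes that had identical counts and are near-identical copies, and Uba7, the activating enzyme of the ISG15 conjugation pathway, at 0.102, 0.102 and 0.106. For Fcgr4 they were Cxcl16, a chemokine, Sirt3, a mitochondrial deacetylase, and Plod3, a lysyl hydroxylase, at 0.050, 0.0628 and 0.0650. For Fcer1g they were Psmd8, a proteasome subunit, 1110008P14Rik and Mrpl27, a mitochondrial ribosomal protein, at 0.0479, 0.0488 and 0.0531. Fcgr2b, with a span of 0.98, and Syk were not searched.

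The kinases, adaptors and inhibitors around the receptors had calls in both directions in the M1 state, as all genes tested did. All counts that follow are from edgeR's quasi-likelihood test beside 23.3% of all genes called higher and 24.3% called lower. Of 7 tested Src and Tec family kinases, which act at the ITAM, Src was higher and Fgr and Btk were lower. Their log2 fold changes were 0.49 (adjusted p = 0.015), -0.80 (adjusted p = 0.000715) and -0.57 (adjusted p = 0.0044), and Lyn, another Src family kinase of macrophages, was at 0.25 and did not pass. Of 24 tested adaptors and effectors below Syk, 6 were higher and 6 lower, near the shares over all genes. Gab2, a docking adaptor for the lipid kinase PI3K, was at 0.94 (adjusted p = 0.000184), with 1649 counts in M0 and 2600 in M1. Pik3r2, a regulatory subunit of PI3K, was at -1.15 (adjusted p = 7.78e-05), with 1538 counts in M0 and 483 in M1.

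**Figure D4:**
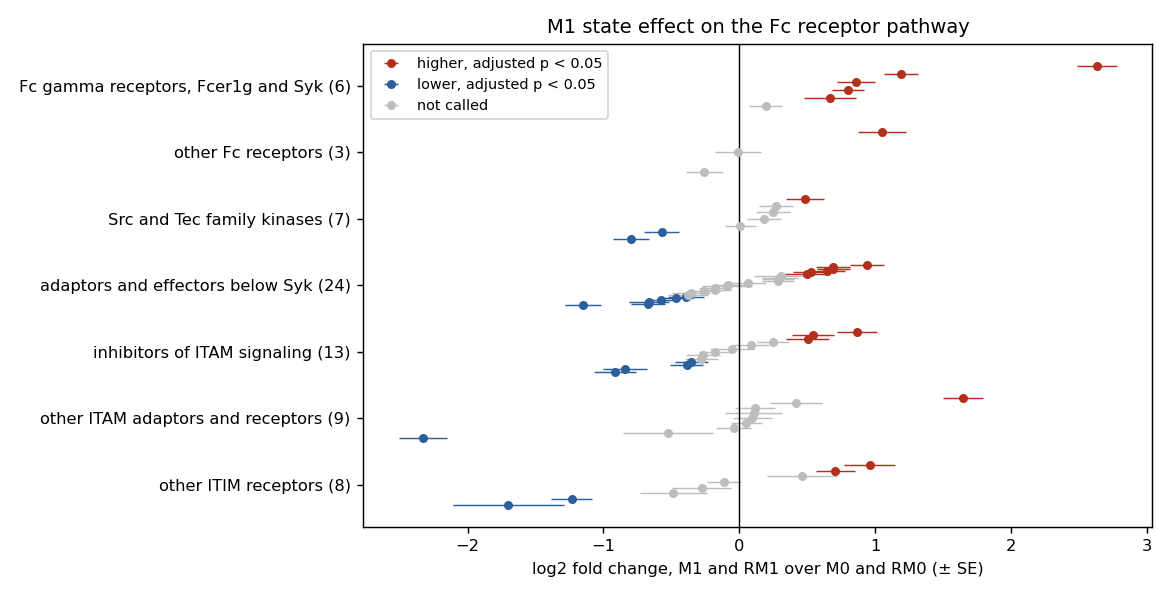
Log2 fold change of the M1 state over M0 (x axis, M1 and RM1 against M0 and RM0) for each tested gene of the Fc receptor pathway, by list, with the number tested in parentheses. Points are fitted values, bars are standard errors, and colors mark calls at an adjusted p under 0.05 in edgeR's quasi-likelihood test. In the receptor list 5 of 6 genes lay to the right as called higher and none was called lower. The lists below Syk and of inhibitors held calls in both directions, as all genes tested did.

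Of 13 inhibitors of ITAM signaling, Cblb, Inppl1 and Dok1 were higher and Csk, Pag1, Ptpn11 and Ptpn6 were lower, also near the shares over all genes. Csk, the kinase that restrains Src family kinases, was at -0.92 (adjusted p = 0.000899), and its membrane anchor Pag1 was at -0.84 (adjusted p = 0.00186). Inpp5d, the lipid phosphatase recruited by Fcgr2b, was at -0.18 and did not pass (adjusted p = 0.247). With library totals alone the counts were 1 higher and 8 lower in this list, 3 and 12 in the list below Syk and 0 and 3 among the kinases. Over all 11574 genes tested, 1091 (9.43%) were then higher and 4750 lower. The balance of directions in these lists thus rested on the scaling, as it did over all genes.

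Other receptors that signal through ITAM adaptors were called in both directions. Trem2, a lipid-sensing receptor that signals through Tyrobp, had 693, 82 and 698 counts in M0, M1 and M2, and 698, 142 and 657 counts in RM0, RM1 and RM2, and its log2 fold change was -2.33 (adjusted p = 5.02e-06). Clec4e, a glycolipid receptor that signals through Fcer1g, had 2790, 7085 and 2675 counts in M0, M1 and M2, and 2882, 7036 and 3297 counts in RM0, RM1 and RM2, at 1.65 (adjusted p = 1.32e-05). Tyrobp, the other main ITAM adaptor of macrophages, was at 0.12 (adjusted p = 0.543), and 1 gene of the 9 tested in this list was higher and 1 lower (1 and 2 with library totals alone). Of 8 other ITIM receptors, Cd300lf (0.96) and Lilrb4 (0.71) were higher and Cd300a (-1.23) and Siglece (-1.70) were lower, and with library totals alone 2 were higher and 5 lower. Among 3 tested Fc receptors outside the family of 4, of which 1 was higher and 0 lower (1 and 1 with library totals alone), Trim21, the cytosolic antibody receptor, was higher at 1.05 (adjusted p = 0.000751), with 134 counts in M0 and 220 in M1, and Fcgrt, the neonatal receptor for IgG, was at -0.01 (adjusted p = 0.979).

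In the irradiation test no gene of these pathway lists was called. In the M2 test 1 was called, Clec7a, a receptor for fungal glucans, at 1.34 (adjusted p = 0.0208). Clec7a had 444 counts in M0 and 847 in M2, and 452 in RM0 and 1526 in RM2.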

How the data were processed

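RNA-seq was performed on 6 libraries, 1 per condition. Per the labels, the processing notes of the submitters name Trimmomatic 0.36, HISAT2 2.2.1, HTSeq 0.11.3 and mm10, and the authors deposited raw counts per gene, which hold no normalization. Strand use in counting is not given in the sources used here. Libraries were grouped by their labels. The 6 genes and the gene lists were chosen with earlier results of these data known.

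Counts were scaled with TMM (edgeR 4.0.16, R 4.3.3) over the 11574 genes that reached 10 counts in 3 or more libraries. Pair fold changes used a prior count of 2 and Clopper-Pearson intervals at 95%, and a change of at least 2-fold with at least 10 counts in 1 library was called, with no p-value. Effects over several pairs were tested with the quasi-likelihood test of edgeR in an additive fit of state and irradiation, with 2 residual degrees of freedom and Benjamini-Hochberg adjustment at 0.05 over all of them. For irradiation the states stand in for replicates, and for the M1 and M2 effects the irradiated and non-irradiated pairs do. The test assumes the same effect in each pair. Its p-values rest on departures from that fit, with variance estimates moderated across genes, and not on a spread between replicates. On simulated data for the irradiation effect over 11574 genes, 89.5% of genes with a log2 fold change of 1 were recovered. The simulation held no M1 or M2 effect and the same irradiation effect in each state. The share recovered may therefore not hold for the measured libraries. All intervals cover counting error only.

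Transcript lengths came from GENCODE M21, for the RefSeq accession listed with the counts. This length replaced the longest transcript after the data had been seen, since the longest Fcgr2b transcript reaches past the counted interval. Promoter windows came from RefSeq (GRCm38.p6), which matched all 6 genes. From the pathway lists, genes were named when they passed 2-fold in M1 against M0 with the same direction in RM1 against RM0, up to 5 per list by size of the M1 effect, or when called for irradiation, which none was. The 6 genes and up to 3 genes with the most similar pattern to each were also named, and some items are not reported here. Genes named outside this rule (Src, Fgr, Btk, Lyn, Cblb, Inppl1, Dok1, Ptpn11, Ptpn6, Inpp5d, Tyrobp, Lilrb4, Fcgrt, Clec7a and the markers) were chosen after their values were seen. Oscar met the rule with 12 counts in M0 and 2 in M1 and was too low to be tested. Alternatives were DESeq2 1.42.0 (size factors or test), library totals, no filter, a prior count of 0.25, thresholds of 1.5-fold and 4-fold, each state left out, other designs and other transcript lengths. Other steps ran in Python 3.11.15 (pandas 2.3.3, numpy 2.4.6, matplotlib 3.10.9 and scipy 1.17.1).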

Additional observations from a re-analysis of the deposited data

How the results depend on the processing

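The count of the 6 genes called in the M1 state was 4 or 5 under the 6 alternatives tried, and for irradiation it was 0 under all 8. For the M2 state it was 1 with DESeq2 and 3 without M1 and RM1. In M1 against M0 the count past 2-fold was 1 with library totals or a 4-fold threshold. In RM1 against RM0 it was 1 with library totals or a 4-fold threshold and 4 at 1.5-fold. At 1.5-fold it was 1 in RM1 against M1 and 2 in RM2 against RM0. The shares of all genes past these thresholds, or past 2-fold with library totals, are not given here. Whether these counts exceed those shares therefore cannot be read from them. Scaling by totals moved the median log2 fold change of all genes to -0.47 in M1 against M0, -0.26 in RM1 against RM0 and 0.13 in RM1 against M1. The cause of these differences was not tested.

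With the median transcript length, the ratio of activating receptors to Fcgr2b was 1.47, 3.74 and 1.31 in M0, M1 and M2 and 1.54, 2.82 and 1.05 in RM0, RM1 and RM2. With the longest transcript, an alternative added after the data had been seen, it was 2.96, 6.64, 2.58, 3.11, 4.99 and 2.12. These differences follow from the lengths, for Fcgr2b 1462 bases as listed and 3544 for the longest.

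The states served as a replicate block in the irradiation test. Without the block, 0 of the 6 genes and 0 of all genes were called by edgeR, and 138 genes had an unadjusted p under 0.05. The labels carry no replicate numbers. Over all genes, the 55 irradiation calls became 3 with library totals, 134 without the filter, 115 with DESeq2, 174 without M0 and RM0 and 522 without M1 and RM1. The 22 M2 calls became 3 with library totals, 45 without the filter, 41 with DESeq2 and 0 with irradiation left out.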
